A study of Mus musculus with 12 samples.

Results

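The p53 pathway and 32 of its regulators and target genes were followed in activated mouse T cells given the cytidine analogue azacitidine (AzaC). Genes were taken by symbol from rows of the deposited array table that are annotated with that gene alone, which gave 27 of the 32, out of 22180 genes measured this way. Each of the 27 had a single row. Trp53, Bax and Fdxr had no such row, and Gadd45a and Ddb2 had rows shared with other genes, so these 5 were not analysed here. The choice of genes used no measured value, but it was made with earlier results of these data known.

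RNA came from co-cultures of 1 part natural regulatory T cells (nTregs) to 10 parts Treg-depleted T cells, which bead-bound CD3 and CD28 antibodies and human IL-2 activated for 2 days before 2 further days in 1 µM AzaC or in PBS. The 4 groups of 3 arrays were nTregs with AzaC, nTregs under PBS, CD4 effector cells (here CD4 cells) with AzaC, and CD4 cells under PBS. Per the protocol, nTregs came from spleens of B6.Foxp3GFP mice and the Treg-depleted cells from B6.Foxp3GFP x B6.CAGDSRED mice. The strain field names the cross with the DsRed line Tg(CAG-DsRed*MST)1Nagy/J for all 12 samples, which goes against that protocol for the nTregs. All cells thus carried the Foxp3 reporter, and nTregs were sorted as DsRed negative and reporter positive, CD4 cells as DsRed positive and reporter negative. CD4 cells that had gained the reporter were outside that gate. The labels leave unsaid whether the 3 arrays of a group came from separate cultures or animals. The p-values therefore reflect only how far these samples spread, which may be technical.

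p53 is a transcription factor that cells hold at low levels through the ubiquitin ligase Mdm2 and its partner Mdm4. DNA damage and other stress free p53, which then raises genes that stop the cell cycle, start apoptosis, repair DNA and adjust metabolism, together with Mdm2 itself as a brake. AzaC is built into RNA and DNA and traps DNA methyltransferases on DNA. T cells and their precursors are known for a ready p53 response to DNA damage.

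Values are log2 signals, on which a step of 1 is a doubling, and genes with an adjusted p under 0.05 in limma (Benjamini-Hochberg, 22180 genes) are said to pass or to be called. Array medians lay between 6.67 and 6.80. One array, nTreg PBS 1, stood apart. Its mean correlation with the other arrays over all genes was 0.972, against 0.979 to 0.987 for the other 11, and the 27 genes deviated there from their group means by a median of −0.20. Values without it are given beside a number of results. The sorted populations were checked on their markers. Foxp3, the defining Treg factor, was higher in nTregs than in CD4 cells by 3.08 with AzaC and by 4.29 under PBS, and Ikzf2 (Helios) by 2.20 and 1.96. Cd4 read between 10.37 and 11.71 on all 12 arrays. Of the CD8 T cell markers, Cd8b1 read between 9.56 and 11.20 and Cd8a between 6.45 and 8.32, though levels of different genes are not comparable on these arrays.

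AzaC raised p53 target genes in CD4 cells. Of the 27 genes, 9 rose, 0 fell and 18 did not pass, where 0.83% of all genes were called higher, 0.933% lower and 1.76% in either direction. At an unadjusted p under 0.05 stood 12 of the 27, against 15.2% of all genes. Cyclin G1, the kinase Plk2, the RNA-binding protein Zmat3, the TRAIL receptor Tnfrsf10b and the Akt repressor Phlda3 were among the 9, and the 9 rises lay between 1.53-fold and 3.08-fold. The median difference of the 27 was 0.30, against 0.01 for all genes. Group values did not overlap for 14 of the 27, with 13 higher and 1 lower with AzaC, where 23.6% of all genes showed no overlap. Without CD4 AzaC 1 the median of the 27 was 0.49. Without nTreg PBS 1, an array that is in neither group but shares the estimate of the spread, 12 rose and 1 fell.

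**Figure D1:**
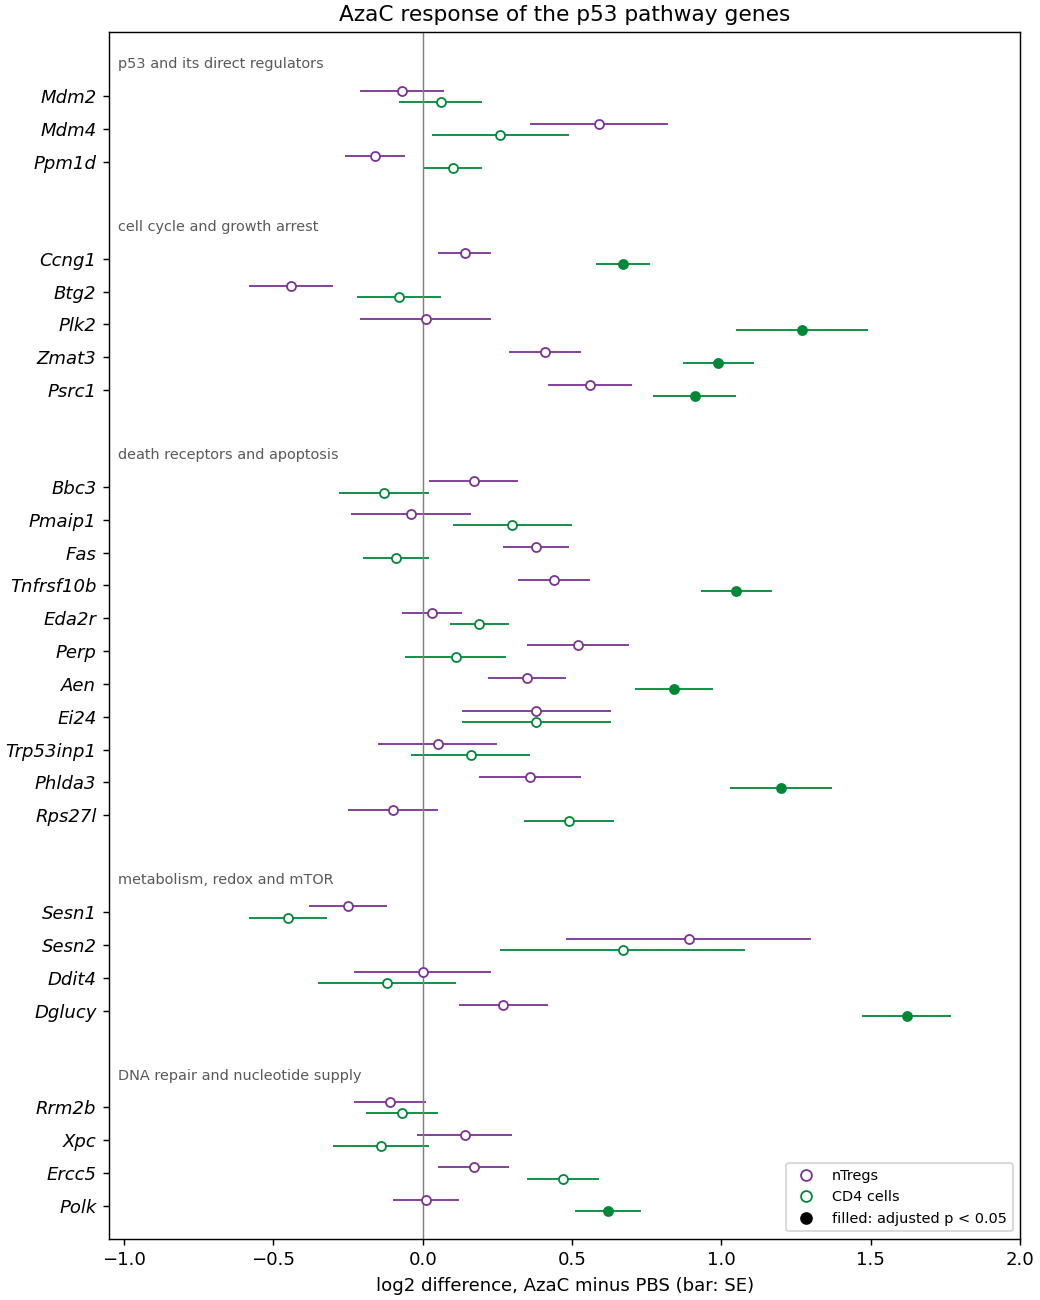
Log2 differences, AzaC minus PBS, of the 27 genes in nTregs (purple, upper point of each pair) and in CD4 cells (green, lower point), grouped by role. Bars are standard errors and filled points passed at an adjusted p under 0.05. The 9 filled points all belong to CD4 cells, at 0.62 to 1.62, and the nTreg points lie between −0.44 and 0.89.

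The negative regulators of p53 did not pass in either population. Mdm2, the ligase that degrades p53 and a target of it, had log2 signals of 9.70, 9.70 and 9.62 in nTregs with AzaC and 9.55, 9.75 and 9.92 in nTregs under PBS. In CD4 cells it had 9.61, 9.65 and 9.09 with AzaC and 9.36, 9.34 and 9.47 under PBS. The groups overlapped in both populations, and the differences were −0.07 (SE 0.14) in nTregs and 0.06 (SE 0.14) in CD4 cells, with a 95% interval of −0.24 to 0.37 in CD4 cells. The overlap in CD4 cells came from CD4 AzaC 3 at 9.09, as the other CD4 AzaC arrays lay above all CD4 PBS values. Under PBS Mdm2 was higher in nTregs than in CD4 cells by 0.35 (SE 0.14) without overlap, as were 13.5% of all genes. That difference did not pass in limma (adjusted p = 0.158), but it did with array weights (0.43, adjusted p = 0.0437). Mdm4, which binds p53 and dampens its activity, differed by 0.59 (SE 0.23, adjusted p = 0.224) in nTregs and 0.26 (SE 0.23) in CD4 cells. Its low value of 8.29 in nTreg PBS 1 stood against 9.23 and 9.43 in the other nTreg PBS arrays, and without that array the nTreg difference was 0.24 (adjusted p = 0.546). Ppm1d, the phosphatase Wip1 that switches p53 signalling off, differed by −0.16 and 0.10 (SE 0.10 each).

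The promoter of Mdm2 is shown because it carries a p53 half-site close to the start of a gene that did not pass. A p53 half-site is a motif of 10 bases in which purines, a core around a fixed C and G, and pyrimidines follow each other, and p53 binds a pair of such motifs. Windows of 300 bases, from 250 before to 50 after each RefSeq gene start (build GRCm38.p6), were searched for exact half-sites. The motif is its own reverse complement, so 1 strand covers both. A match held for 8.36% of all 32851 windows. Of the 27 genes, 20 had a window, and 8 of these 20 held a half-site in at least 1 window, against 9.55% of the 27025 genes with a window. The 8 were 3 of the 7 called genes with a window (Ccng1, Aen and Polk) and 5 of the 13 others (Mdm2, Ppm1d, Ei24, Rps27l and Sesn1). A match is a string of letters in this window, not a shown binding site, and p53 also acts through sites outside it. In the sequences printed here, capitals mark exact half-sites, and each is given 5′ to 3′ on the strand of its gene. The Mdm2 window lies at chr10:117710709-117711008 on the minus strand, with its half-site beginning 186 bases before the start.
Mdm2: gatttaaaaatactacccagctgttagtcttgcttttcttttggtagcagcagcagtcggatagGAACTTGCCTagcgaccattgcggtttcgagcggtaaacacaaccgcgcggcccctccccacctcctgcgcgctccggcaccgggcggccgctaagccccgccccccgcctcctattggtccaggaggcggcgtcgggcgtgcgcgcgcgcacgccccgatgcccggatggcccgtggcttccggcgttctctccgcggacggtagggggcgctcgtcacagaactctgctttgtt

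Of 5 genes grouped here under cell cycle and growth arrest, 4 rose with AzaC in CD4 cells and Btg2 did not pass. Of all genes 0.83% were called higher in this comparison. Ccng1, cyclin G1, a direct p53 target that acts with the phosphatase PP2A on Mdm2, had 12.88, 13.07 and 12.99 in CD4 cells with AzaC, against 12.32, 12.25 and 12.37 in CD4 cells under PBS. All AzaC values lay above all PBS values (log2 difference 0.67, SE 0.09, adjusted p = 0.00176 in limma). In nTregs its values were 13.09, 13.09 and 13.10 with AzaC and 12.91, 12.96 and 13.00 under PBS. These groups did not overlap either, but the difference of 0.14 did not pass (adjusted p = 0.459).

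The Ccng1 window, at chr11:40755237-40755536 on the minus strand, is shown because it held a fuller match. An exact half-site abutted by another with C and G kept and 1 other mismatch formed the 20-base string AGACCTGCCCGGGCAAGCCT at chr11:40755462-40755481, beginning 195 bases before the start. Such strings, with up to 2 mismatches in the second half-site, were found in 0.189% of all windows and, among the 20 genes with a window, in Ccng1 and Rps27l.
Ccng1: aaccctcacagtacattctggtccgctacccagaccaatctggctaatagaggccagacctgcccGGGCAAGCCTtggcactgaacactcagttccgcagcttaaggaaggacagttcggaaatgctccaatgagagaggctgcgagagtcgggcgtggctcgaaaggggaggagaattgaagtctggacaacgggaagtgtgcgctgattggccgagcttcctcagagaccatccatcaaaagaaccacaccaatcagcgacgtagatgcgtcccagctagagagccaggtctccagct

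Plk2, a polo-like kinase of stress checkpoints, stood at 7.27, 7.48 and 7.35 in CD4 cells with AzaC, against 6.26, 6.51 and 5.52 in CD4 cells under PBS (log2 difference 1.27, SE 0.22, adjusted p = 0.00966). Zmat3, an RNA-binding zinc finger protein induced by p53, had 8.96, 9.03 and 8.85 with AzaC and 7.75, 8.09 and 8.04 under PBS (0.99, SE 0.12, adjusted p = 0.000674). Neither gene's CD4 groups overlapped. Psrc1, a spindle protein, had 9.29, 9.45 and 9.47 in CD4 cells with AzaC, against 8.46, 8.60 and 8.41 under PBS (0.91, SE 0.14, adjusted p = 0.00474). In nTregs Zmat3 differed by 0.41 (adjusted p = 0.111), Psrc1 by 0.56 (adjusted p = 0.0655) and Plk2 by 0.01 (adjusted p = 0.979). Psrc1 passed without nTreg PBS 2 (adjusted p = 0.0346), while without nTreg PBS 1, where it read 8.30, its difference was 0.36 (adjusted p = 0.104). Btg2, an antiproliferative gene of resting lymphocytes, differed by −0.44 (SE 0.14, adjusted p = 0.130) in nTregs and −0.08 (SE 0.14) in CD4 cells. All 3 nTreg AzaC values of Btg2 (8.84, 9.15 and 9.08) lay below the PBS values (9.69, 9.41 and 9.29).

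Death receptor and apoptosis genes were divided. Of 11 measured in CD4 cells, 3 rose (Tnfrsf10b, Aen and Phlda3) while the other 8 missed the threshold, where 0.83% of all genes were called higher. Tnfrsf10b, the mouse TRAIL death receptor, had 8.28, 8.60 and 8.47 in CD4 cells with AzaC, against 7.30, 7.55 and 7.36 in CD4 cells under PBS, a rise of 2.07-fold (log2 difference 1.05, SE 0.12, adjusted p = 0.000445). Phlda3, which competes with the kinase Akt for membrane lipids, had 9.42, 9.38 and 9.35 with AzaC and 8.63, 8.21 and 7.72 under PBS (1.20, SE 0.17, adjusted p = 0.00214). The spread of Phlda3 was wide under PBS (SD 0.45) and narrow with AzaC (SD 0.04). Aen, a nuclease of apoptotic DNA degradation, had 7.96, 7.83 and 7.90 with AzaC, against 7.16, 7.09 and 6.94 under PBS (0.84, SE 0.13, adjusted p = 0.00414). The groups did not overlap for any of these 3 genes.

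Mitochondrial death genes, which release cytochrome c through Bax and its relatives, did not pass in CD4 cells. Bbc3 (Puma) differed by −0.13 (SE 0.15) and Pmaip1 (Noxa) by 0.30 (SE 0.20). Fas, the CD95 death receptor, differed by −0.09 (SE 0.11), with 9.54, 9.87 and 9.69 in CD4 cells with AzaC and 9.87, 9.77 and 9.75 under PBS. Perp, a membrane protein of desmosomes and apoptosis, differed by 0.11, Eda2r, a receptor of the TNF family, by 0.19, Ei24, an endoplasmic reticulum protein, by 0.38, and Trp53inp1, a cofactor of p53 phosphorylation, by 0.16. Rps27l, a ribosomal protein paralogue induced by p53, stood at 9.20, 9.57 and 9.71 with AzaC and 9.16, 8.92 and 8.94 under PBS. Those values did not overlap, yet the difference of 0.49 (SE 0.15) did not pass (adjusted p = 0.131, and 0.0460 without nTreg PBS 1).

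The windows of Aen and Rps27l are shown as an example from a called gene and from one with matching letters that did not pass. The Aen window at chr7:78895677-78895976 on the plus strand has its half-site 11 bases after the start, and a later start of the same gene places it 121 bases before. The Rps27l window at chr9:66946163-66946462 on the plus strand holds 2 exact half-sites, and the window of another Rps27l start held none. The second half-site belongs to the 20-base string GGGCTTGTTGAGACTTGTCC, which begins 117 bases before the start.
Aen: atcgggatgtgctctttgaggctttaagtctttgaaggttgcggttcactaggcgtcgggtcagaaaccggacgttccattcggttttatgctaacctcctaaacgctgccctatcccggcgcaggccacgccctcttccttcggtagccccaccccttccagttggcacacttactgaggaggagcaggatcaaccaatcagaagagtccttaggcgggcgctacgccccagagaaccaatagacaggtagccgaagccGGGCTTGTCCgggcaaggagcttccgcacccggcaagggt
Rps27l: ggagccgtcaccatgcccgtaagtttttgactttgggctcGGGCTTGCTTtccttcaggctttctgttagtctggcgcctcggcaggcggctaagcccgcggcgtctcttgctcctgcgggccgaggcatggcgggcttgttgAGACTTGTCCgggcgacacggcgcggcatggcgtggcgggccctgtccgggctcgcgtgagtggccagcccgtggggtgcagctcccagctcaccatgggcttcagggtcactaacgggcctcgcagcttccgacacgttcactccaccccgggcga

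**Figure D2:**
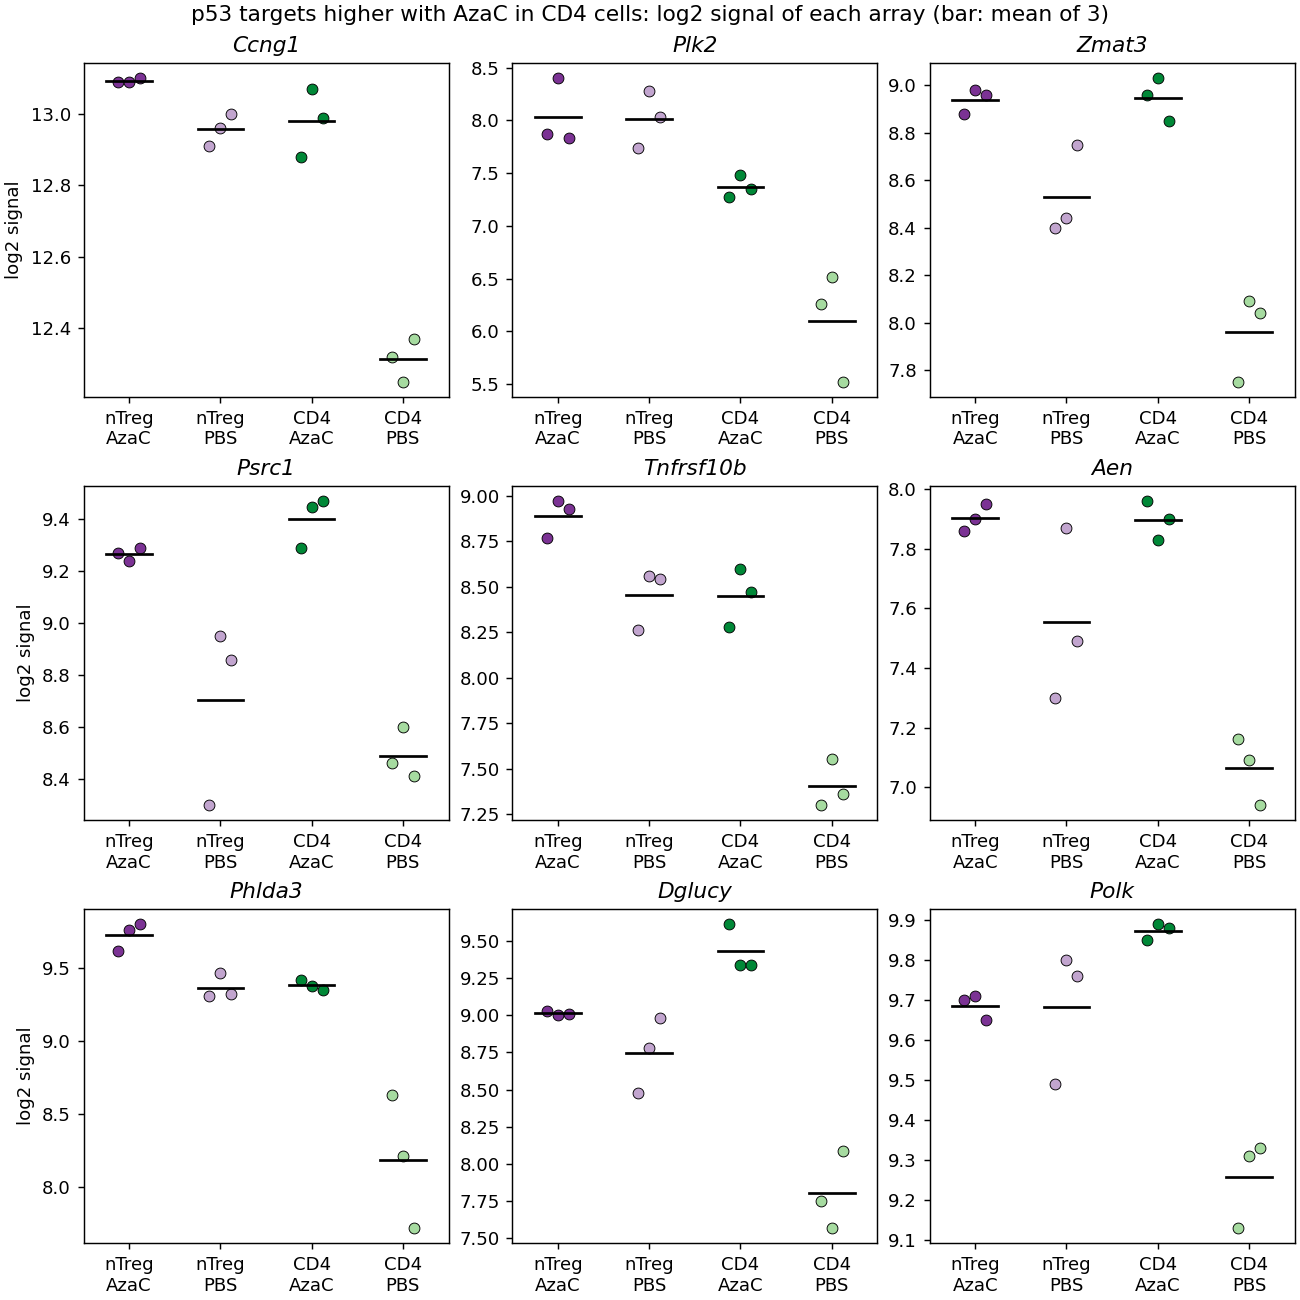
Log2 signal of each array for the 9 genes that rose with AzaC in CD4 cells, in nTregs with AzaC, nTregs under PBS, CD4 cells with AzaC and CD4 cells under PBS. Points are arrays, bars are means of 3, and each panel has its own axis, which does not start at 0. In every panel the 3 CD4 PBS arrays lie below the 3 CD4 AzaC arrays, as for Ccng1 with 12.25 to 12.37 under PBS.

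Among 4 genes of metabolism and redox balance, Dglucy alone rose with AzaC in CD4 cells, where 0.83% of all genes were called higher. Dglucy, D-glutamate cyclase of mitochondria, had 9.61, 9.34 and 9.34 in CD4 cells with AzaC, against 7.75, 7.57 and 8.09 in CD4 cells under PBS. This rise of 3.08-fold was the largest of the 27 genes in CD4 cells (log2 difference 1.62, SE 0.15, adjusted p = 9.09e-05). The sestrins, which restrain mTORC1 under stress, differed in sign. Sesn2 had 9.95, 10.04 and 9.69 in CD4 cells with AzaC, against 9.22, 9.19 and 9.26 under PBS, and Sesn1 had 9.01, 9.02 and 8.95, against 9.28, 9.56 and 9.49. Neither gene's CD4 groups overlapped, where 23.6% of all genes showed no overlap, and neither passed. The differences were 0.67 (SE 0.41, adjusted p = 0.455) for Sesn2 and −0.45 (SE 0.13, adjusted p = 0.117) for Sesn1. Without nTreg PBS 1, where Sesn2 read 8.43 against 10.56 and 10.69 in the other nTreg PBS arrays, both passed (adjusted p = 0.00260 and 0.0153). Ddit4 (Redd1), another brake on mTORC1, differed by −0.12 (SE 0.23).

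Of 4 genes of DNA repair and nucleotide supply, Polk alone rose with AzaC in CD4 cells, where 0.83% of all genes were called higher. Polk, a translesion DNA polymerase, had 9.85, 9.89 and 9.88 in CD4 cells with AzaC and 9.13, 9.31 and 9.33 in CD4 cells under PBS, with no overlap (log2 difference 0.62, SE 0.11, adjusted p = 0.00817). Ercc5 (XPG), a nuclease of nucleotide excision repair, had 8.85, 8.99 and 8.81 with AzaC, against 8.40, 8.59 and 8.23 under PBS, also without overlap. Its difference of 0.47 (SE 0.12) did not pass (adjusted p = 0.0696, and 0.0339 without nTreg PBS 1). Xpc, the damage sensor of the same repair path, differed by −0.14 (SE 0.16), and Rrm2b, the p53-induced small subunit of ribonucleotide reductase, by −0.07 (SE 0.12). The Polk window at chr13:96519138-96519437 on the minus strand is shown because Polk is the called repair gene. Its half-site begins 231 bases before the start, and the window of another Polk start held none.
Polk: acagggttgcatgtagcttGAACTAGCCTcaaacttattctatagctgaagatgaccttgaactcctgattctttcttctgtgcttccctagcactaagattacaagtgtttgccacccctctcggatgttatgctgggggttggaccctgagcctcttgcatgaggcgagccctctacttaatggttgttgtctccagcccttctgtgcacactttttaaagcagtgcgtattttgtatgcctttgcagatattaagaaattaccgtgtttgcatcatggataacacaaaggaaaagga

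Of 5 Treg markers, 2 rose with AzaC in CD4 cells beside the 9 genes, Foxp3 by 1.57 and Il2ra by 0.59. Ctla4 differed by −0.16, with all values lower with AzaC, and Tnfrsf18 by 0.06, and neither passed. The mean log2 signal of the 5 lay between 10.44 and 10.49 in CD4 cells with AzaC, against 10.02 to 10.06 under PBS. The same mean lay between 11.62 and 11.83 in nTregs under PBS. Ikzf2, which was 1.96 higher in nTregs than in CD4 cells under PBS, differed by 0.06 (SE 0.13) between CD4 cells with AzaC and under PBS. The part of Treg-like cells in the rise of the 9 genes was not tested. In such bulk samples, more cells of a type and more RNA per cell cannot be told apart. Markers of CD8 T cells (0 of 2 called), B cells (0 of 4), myeloid and dendritic cells (0 of 7) and T cells (0 of 3) did not pass in CD4 cells, and of 4 NK markers Klrd1 fell by 1.35.

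In nTregs, limma passed 0 of the 27 genes with AzaC, where 2.02% of all genes were called. At an unadjusted p under 0.05 stood 9 of the 27, 8 of them higher, against 16.8% of all genes. Of all genes 1.42% were called higher and 0.6% lower. With array weights 5 of the 27 rose and 1 fell, without nTreg PBS 1 Fas alone rose, and without nTreg PBS 2 Psrc1 and Aen rose (Aen by 0.51, adjusted p = 0.0396). The differences lay between −0.44 and 0.89, with a median of 0.14 against −0.04 for all genes. Without nTreg PBS 1 they lay between −0.41 and 0.67 with a median of 0.04, and 6 of the 27 changed sign. The median was 0.24 without nTreg PBS 3. Group values did not overlap for 9 of the 27, with 7 higher and 2 lower, where 24.5% of all genes showed no overlap.

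The 9 genes called in CD4 cells differed in nTregs by 0.01 to 0.56, each above 0, and by −0.12 to 0.36 without nTreg PBS 1, where Plk2 and Polk lay below 0. Tnfrsf10b had 8.77, 8.97 and 8.93 in nTregs with AzaC, against 8.26, 8.56 and 8.54 under PBS, without overlap (log2 difference 0.44, SE 0.12, adjusted p = 0.0854). Without nTreg PBS 1 its difference was 0.34 (adjusted p = 0.2 in limma). Fas had 10.45, 10.48 and 10.50 with AzaC and 10.25, 10.05 and 9.99 under PBS, also without overlap (0.38, SE 0.11, adjusted p = 0.0941, and 0.0492 without nTreg PBS 1). Perp differed by 0.52 (SE 0.17, adjusted p = 0.148) and its groups overlapped. Sesn2 differed by 0.89 (SE 0.41, adjusted p = 0.289), with 10.81, 10.69 and 10.84 in nTregs with AzaC and 8.43, 10.56 and 10.69 under PBS. The low value is again nTreg PBS 1, and without it the difference of Sesn2 was 0.15 (adjusted p = 0.615). Both CD8 T cell markers rose in the same comparison, Cd8a by 1.39 and Cd8b1 by 0.72, and their mean log2 signal lay between 9.62 and 9.75 in nTregs with AzaC, against 8.35 to 8.96 under PBS. Of 7 myeloid markers Fcer1g rose by 0.62 and Itgam fell by 0.94, and of 4 NK markers Eomes rose by 0.96. Markers of B cells and of T cells did not pass. Their part in the nTreg values was not tested.

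**Figure D3:**
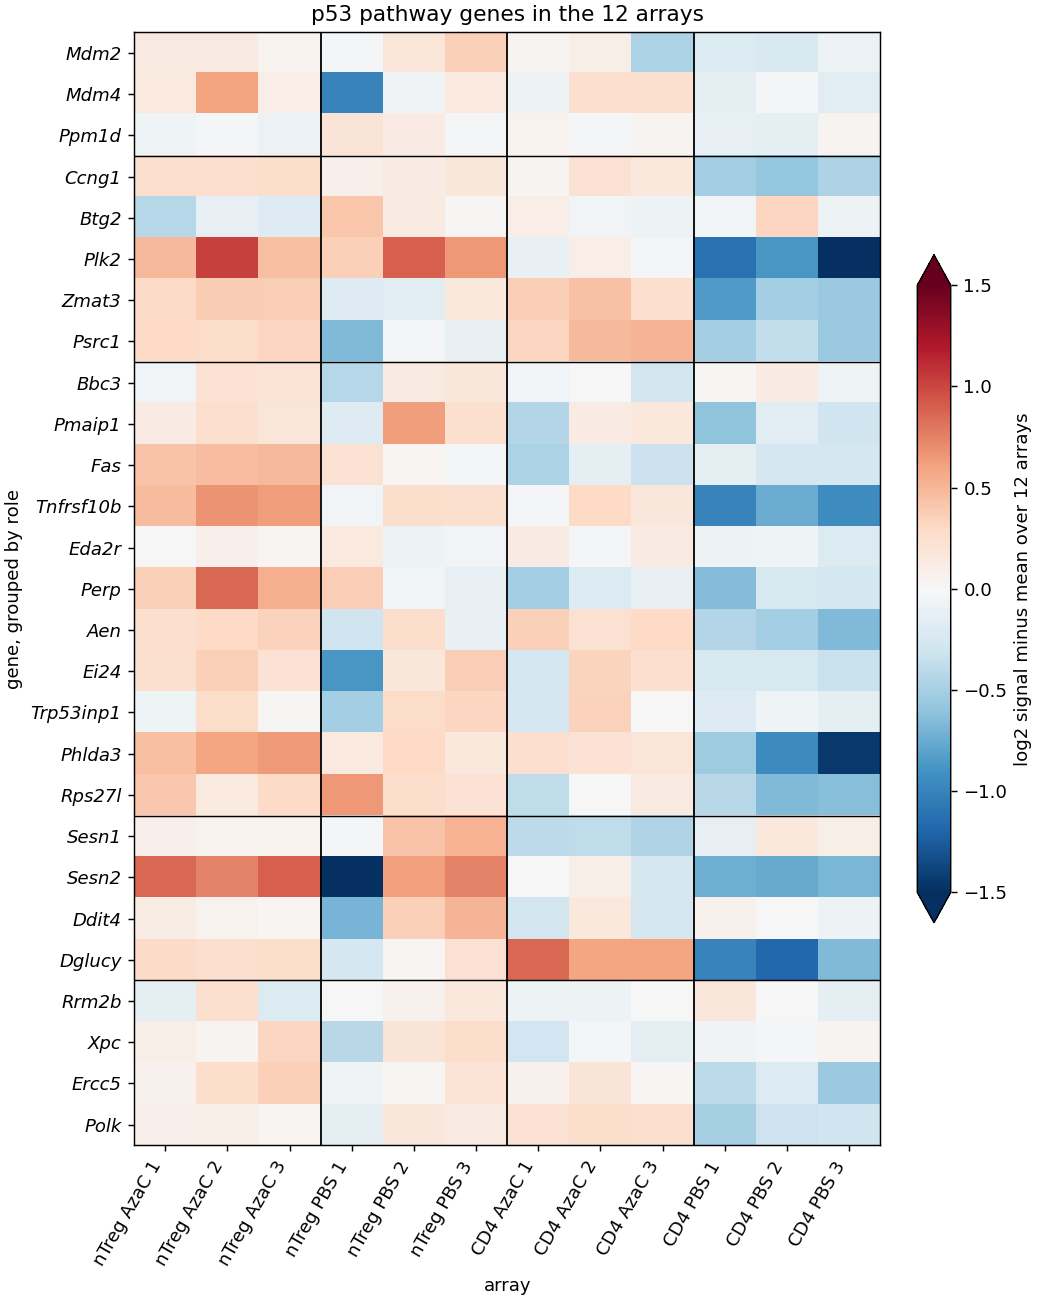
Log2 signal of the 27 genes in each of the 12 arrays, as the difference from that gene's mean over all 12, with colours cut off at −1.5 and 1.5. Rows are genes grouped by role, and columns are arrays, 3 for each group. The CD4 PBS columns are low (blue) for Plk2, Phlda3, Tnfrsf10b and Dglucy, and nTreg PBS 1 stands out for Sesn2, which read 8.43 there.

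The difference between the AzaC effects, nTregs minus CD4 cells, passed for 1 of the 27 genes, where 0.203% of all genes passed and 0.0586% were lower. Dglucy differed by 0.27 (SE 0.15) in nTregs and by 1.62 in CD4 cells, a difference of −1.36 (SE 0.21, adjusted p = 0.0198). Its nTreg values were 9.03, 9.00 and 9.01 with AzaC, against 8.48, 8.78 and 8.98 under PBS. The call was lost without CD4 PBS 1 or 2, CD4 AzaC 1 or 3, or nTreg AzaC 1, 2 or 3 (adjusted p = 0.0533 to 0.0693). At an unadjusted p under 0.05 stood 10 of the 27, against 17.5% of all genes. The 9 genes called in CD4 cells all had a difference below 0 (−1.36 to −0.35), but they were picked by the CD4 effect that enters it, so this is a description. Polk (−0.61, SE 0.15, adjusted p = 0.129), Ccng1 (−0.53, SE 0.13, adjusted p = 0.130) and Plk2 (−1.26, SE 0.32, adjusted p = 0.136) came next and did not pass, although Polk passed without nTreg PBS 1 (−0.71, adjusted p = 0.0406). A weaker response of these 3 genes in nTregs is therefore not shown by this test, while the 95% intervals (−0.93 to −0.29, −0.81 to −0.25 and −1.93 to −0.58) lay below 0 before adjustment. With array weights in limma all 3 passed, Polk at −0.72 (adjusted p = 0.00779), Ccng1 at −0.57 (0.0183) and Plk2 at −1.25 (0.018). Polk also passed with repeated quantile normalization (−0.8, adjusted p = 0.0256).

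The populations differed in these genes without the drug. Under PBS, 10 of the 27 genes were higher in nTregs than in CD4 cells, 0 were lower and 17 did not pass, where 3.9% of all genes were called higher and 8.01% called in either direction. The 27 had a median difference of 0.35, against 0.03 for all genes, and 25 of the 27 had a difference above 0. At an unadjusted p under 0.05 stood 14 of the 27, against 23.0% of all genes. Group values did not overlap for 13 of the 27, all higher in nTregs, where 26.7% of all genes showed no overlap. Plk2 showed the largest, with 7.74, 8.28 and 8.03 in nTregs under PBS and 6.26, 6.51 and 5.52 in CD4 cells under PBS (log2 difference 1.92, SE 0.22, adjusted p = 9.63e-05). Phlda3 had 9.31, 9.47 and 9.32, against 8.63, 8.21 and 7.72 in CD4 cells (1.18, SE 0.17, adjusted p = 0.000582). Tnfrsf10b had 8.26, 8.56 and 8.54, against 7.30, 7.55 and 7.36 in CD4 cells (1.05, SE 0.12, adjusted p = 9.12e-05). No nTreg value of these death and stress genes overlapped a CD4 value.

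Rps27l, the gene with 2 half-sites in 1 of its 2 windows, had 10.23, 9.84 and 9.80 in nTregs under PBS and 9.16, 8.92 and 8.94 in CD4 cells under PBS (0.95, SE 0.15, adjusted p = 0.00120). Dglucy was higher in nTregs by 0.94 (SE 0.15), Ccng1 by 0.65 (SE 0.09) and Zmat3 by 0.57 (SE 0.12). Smaller differences that passed were those of Aen (0.49), Ercc5 (0.44) and Polk (0.43), with SEs of 0.11 to 0.13. Each of these 3 calls was lost when any 1 of several arrays was left out. All 3 were also lost with arrays centred on their median, and Aen with repeated quantile normalization as well. Aen was lost without CD4 PBS 1, 2 or 3 or nTreg PBS 2 (adjusted p = 0.0552 to 0.120), Polk without CD4 PBS 1 or 2 or nTreg PBS 2 or 3 (0.0509 to 0.0943), and Ercc5 without CD4 PBS 1 or 3, CD4 AzaC 3, nTreg PBS 2 or 3, or nTreg AzaC 2 (0.0541 to 0.144). Without nTreg PBS 1, 15 genes were higher. The 5 added were Sesn2, with a difference of 1.40 (adjusted p = 4.02e-06) against 0.67 (adjusted p = 0.348) with that array, Pmaip1 (0.80, against 0.58), Ei24 (0.54, against 0.16), Sesn1 (0.43, against 0.26) and Psrc1 (0.42, against 0.21). All 5 Treg markers were higher in nTregs, Cd79b (0.80) was the 1 of 4 B cell markers that was, and Cd3e (−0.77), Cd4 (−0.83) and the NK markers Klrd1 (−1.30) and Eomes (−0.73) were lower. The array nTreg PBS 1 was low for Cd3e (11.79, against 12.58 and 12.63 in the other nTreg PBS arrays) and for Cd4 (10.37, against 11.08 and 11.08). In CD4 cells under PBS Cd3e read 13.10 to 13.11 and Cd4 11.64 to 11.71.

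With AzaC, 4 of the 27 genes were higher in nTregs than in CD4 cells and 0 were lower, where 4.57% of all genes were called higher and 6.75% in either direction. At an unadjusted p under 0.05 stood 8 of the 27, against 20.5% of all genes. The 4 were Fas, Perp, Tnfrsf10b and Sesn1. Fas had 10.45, 10.48 and 10.50 in nTregs with AzaC and 9.54, 9.87 and 9.69 in CD4 cells with AzaC (log2 difference 0.78, SE 0.11, adjusted p = 0.000439). Perp had 7.68, 8.19 and 7.87, against 6.82, 7.12 and 7.21 in CD4 cells (0.86, SE 0.17, adjusted p = 0.00606). Both death genes showed no overlap between the populations, as did 32.3% of all genes. Of the 27, 10 had all nTreg values higher and 4 had all of them lower. Sesn1 was higher by 0.47 (adjusted p = 0.0482) and Tnfrsf10b by 0.44 (adjusted p = 0.0428). Sesn1 lost its call without CD4 PBS 1, 2 or 3, CD4 AzaC 1, 2 or 3, nTreg PBS 2 or nTreg AzaC 1, 2 or 3 (adjusted p = 0.0510 to 0.143), and Tnfrsf10b without CD4 PBS 1, CD4 AzaC 1 or 3, nTreg PBS 2 or nTreg AzaC 1, 2 or 3 (0.0505 to 0.190). Plk2 (0.66) passed without CD4 PBS 3 (adjusted p = 0.0307, against 0.0993 with it) and Sesn2 (0.89) without nTreg PBS 1 (6.98e-05, against 0.234 with it). The CD8 markers Cd8a (1.36) and Cd8b1 (1.27) were higher in nTregs in this comparison too, as were Cd79b (1.08) of the B cell and Fcer1g (0.54) of the myeloid markers, and the CD8 markers had a mean log2 signal of 9.62 to 9.75 in nTregs and 8.11 to 8.54 in CD4 cells. Their part in the difference of Fas and Perp was not tested.

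**Figure D4:**
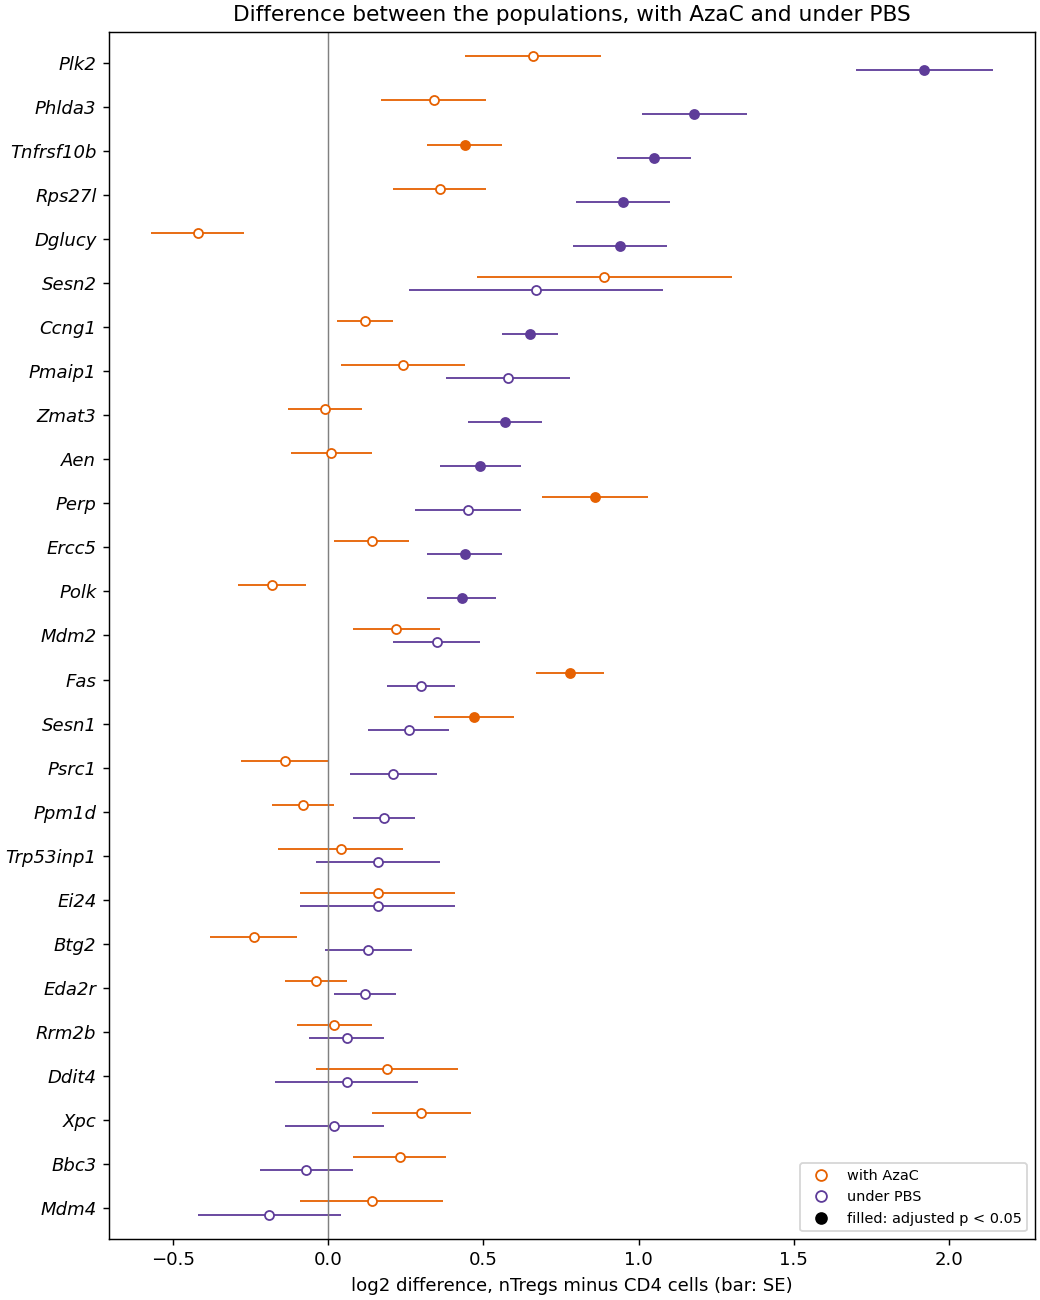
Log2 differences, nTregs minus CD4 cells, of the 27 genes with AzaC (orange, upper point) and under PBS (violet, lower point), ordered by the difference under PBS. Bars are standard errors and filled points passed at an adjusted p under 0.05. Plk2 stands at 0.66 with AzaC and 1.92 under PBS, and Dglucy at −0.42 and 0.94.

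The 9 genes that rose in CD4 cells can be read in all 4 groups at once. Their gaps between nTregs and CD4 cells lay between −0.42 and 0.66 with AzaC, with a median of 0.01, and between 0.21 and 1.92 under PBS, with a median of 0.65. The medians of the other 18 genes were 0.20 with AzaC and 0.17 under PBS, and those of all 27 were 0.16 and 0.35. The 9 were picked by their rise in CD4 cells, which by itself narrows their gap with AzaC, so these medians are a description. These sets of differences share arrays with the AzaC comparisons, so no correlation between them is given. Aen averaged 7.90 ± 0.05 (SD, n = 3) in nTregs with AzaC, 7.55 ± 0.29 in nTregs under PBS, 7.90 ± 0.07 in CD4 cells with AzaC and 7.06 ± 0.11 in CD4 cells under PBS. For Zmat3 the means were 8.94 ± 0.05, 8.53 ± 0.19, 8.95 ± 0.09 and 7.96 ± 0.18 in the same groups. With AzaC the populations differed by 0.01 (95% interval −0.27 to 0.28) for Aen and by −0.01 (−0.27 to 0.25) for Zmat3. Dglucy and Polk had higher means in CD4 cells with AzaC (9.43 and 9.87) than in nTregs with AzaC (9.01 and 9.69), with no overlap, but neither difference passed (adjusted p = 0.121 and 0.348). Dglucy did pass with array weights (−0.37, adjusted p = 0.027 in limma), repeated quantile normalization (−0.53, 0.0352) and a fit of only the AzaC arrays (−0.42, 0.0262).

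Among other p53 targets outside the 27, of 36 measured of 40 listed, 8 rose and 1 fell with AzaC in CD4 cells, where 0.83% of all genes were called higher and 0.933% lower, with a median of 0.15. The list was drawn up with earlier results of these data known, so its count is not independent evidence. Cdkn1a, the p21 inhibitor of cyclin-dependent kinases, rose by 1.95, Ptpn14, a phosphatase that restrains Yap, by 1.51 and Cpt1c, a carnitine palmitoyltransferase of neurons, by 1.28, while Pltp, the phospholipid transfer protein, fell by 0.95 (adjusted p = 0.000517 or less for all 4). In nTregs 4 of the 36 rose and 1 fell, against 1.42% and 0.6% of all genes. Ptpn14 (0.90), the drug pump gene Abcb1a (0.66), Trp53i11 (0.71) and the cytokine gene Lif (0.80) rose, and Arap2 fell by 0.48. Among these calls Lif had the largest p in limma, and how its call held under the alternatives is not given here. The call of Abcb1a was lost without nTreg AzaC 1 or 2 (adjusted p = 0.0584 and 0.0570), that of Trp53i11 without any single CD4 or nTreg AzaC array (0.0604 to 0.158), and that of Arap2 without any single array but CD4 PBS 3, CD4 AzaC 1 and CD4 AzaC 3 (0.0580 to 0.144). Without nTreg PBS 1 the difference of Trp53i11 was 0.44 (adjusted p = 0.0290). In a fit of only the nTreg arrays none of these 3 passed (adjusted p = 0.0572 for Abcb1a, 0.219 for Trp53i11 and 0.0939 for Arap2). The AzaC effect was lower in nTregs than in CD4 cells for Cdkn1a (difference −1.62, adjusted p = 0.00126), Slc19a2, a thiamine transporter (−1.03, adjusted p = 0.0356), and Dcxr, a carbonyl reductase (−0.79, adjusted p = 0.0482). In nTregs Slc19a2 averaged 8.56 with AzaC and 8.59 under PBS, and Dcxr 9.89 and 10.05. In CD4 cells the means were 8.58 and 7.59 for Slc19a2 and 9.54 and 8.92 for Dcxr. Slc19a2 lost its call without any single array but CD4 PBS 1 and nTreg PBS 1 (adjusted p = 0.0585 to 0.123), and Dcxr without any single array (0.0503 to 0.136).

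Under PBS, 8 of the 36 other targets were higher in nTregs than in CD4 cells and 1 was lower, against 3.9% and 4.12% of all genes. Cdkn1a led them with a difference of 2.05 (adjusted p = 1.24e-07), beside the p53-induced non-coding RNA Trp53cor1 (1.77) and Dcxr (1.14), and Pltp was lower (−1.49). With AzaC 4 were higher and 3 lower, against 4.57% and 2.19% of all genes, with Trp53i11 at 0.97, Abcb1a at 0.74, Cdkn1a at 0.43 and Pltp at −0.76. The call of Cdkn1a was lost there without any single AzaC array or CD4 PBS 1 or 2 (adjusted p = 0.0509 to 0.148). Kinases and cofactors upstream of p53 act largely at the protein level. Of 25, Ppp1r13b, a p53-binding ASPP protein, alone passed with AzaC in CD4 cells, where 1.76% of all genes did, and fell (−0.59, adjusted p = 0.0378). That call was lost without any single CD4 or nTreg AzaC array (0.0601 to 0.161). In nTregs 0 of the 25 passed in limma and 5 stood at an unadjusted p under 0.05, against 2.02% and 16.8% of all genes. The acetyltransferase gene Kat5 (0.56, and 0.36 without nTreg PBS 1) and Trim24 (0.35) were nearest there. Under PBS Hipk2 (0.84), Atr (0.52) and Cdkn2a (0.38) were higher in nTregs and Kat5 (−0.68) lower, 4 of the 25 where 8.01% of all genes were called. Cdkn2a was lost without CD4 PBS 1, 2 or 3 or nTreg PBS 1 or 3 (adjusted p = 0.0532 to 0.0895). In a fit of only the PBS arrays all 4 calls were lost (adjusted p = 0.0567 for Hipk2, 0.0726 for Atr, 0.127 for Cdkn2a and 0.0867 for Kat5), and Atr differed by 0.10 (adjusted p = 0.696) in the mean over its rows. With AzaC Chek1 was lower in nTregs (−0.52), a call lost without CD4 AzaC 2 or 3 or nTreg AzaC 1 or 2 (adjusted p = 0.0551 to 0.110).

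Cell cycle genes that p53 is known to lower through p21 and the DREAM repressor complex were called mostly between the populations. Of 19 measured, Cdc25c, a mitotic phosphatase, alone passed with AzaC in CD4 cells and fell (−0.49, adjusted p = 0.0489), where 1.76% of all genes passed. The call was lost without any single CD4 or nTreg AzaC array or nTreg PBS 2 (adjusted p = 0.0555 to 0.181), and in a fit of only the CD4 arrays (0.0692). In nTregs limma passed 0 of the 19, against 2.02% of all genes. At an unadjusted p under 0.05 stood 8 of the 19 there, 1 of them higher with AzaC, against 16.8% of all genes. In CD4 cells 6 of the 19 did, 2 of them higher, against 15.2% of all genes. Cdc25c differed by −0.44 and Mybl2 by 0.42 in nTregs. The list medians were −0.10 in nTregs and −0.15 in CD4 cells. With AzaC 10 of the 19 were lower in nTregs than in CD4 cells, with Cdc25c at −0.72, Kif23 at −0.61, Top2a at −0.56 and Ccnb2 at −0.53, where 2.19% of all genes were called lower. Under PBS 14 of the 19 were lower, with Bub1b at −0.85, Cdc25c and Cdc20 at −0.77 and Ccnb2 at −0.48, against 4.12% of all genes. In a fit of only the PBS arrays Ccnb2 and Cdc20 did not pass (adjusted p = 0.0526 and 0.0773). These genes encode proteins of mitotic entry and spindle control. The difference between the AzaC effects was called for 0 of the 19 in limma, with 0 at an unadjusted p under 0.05. Of all genes these shares were 0.203% and 17.5%.

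**Figure D5:**
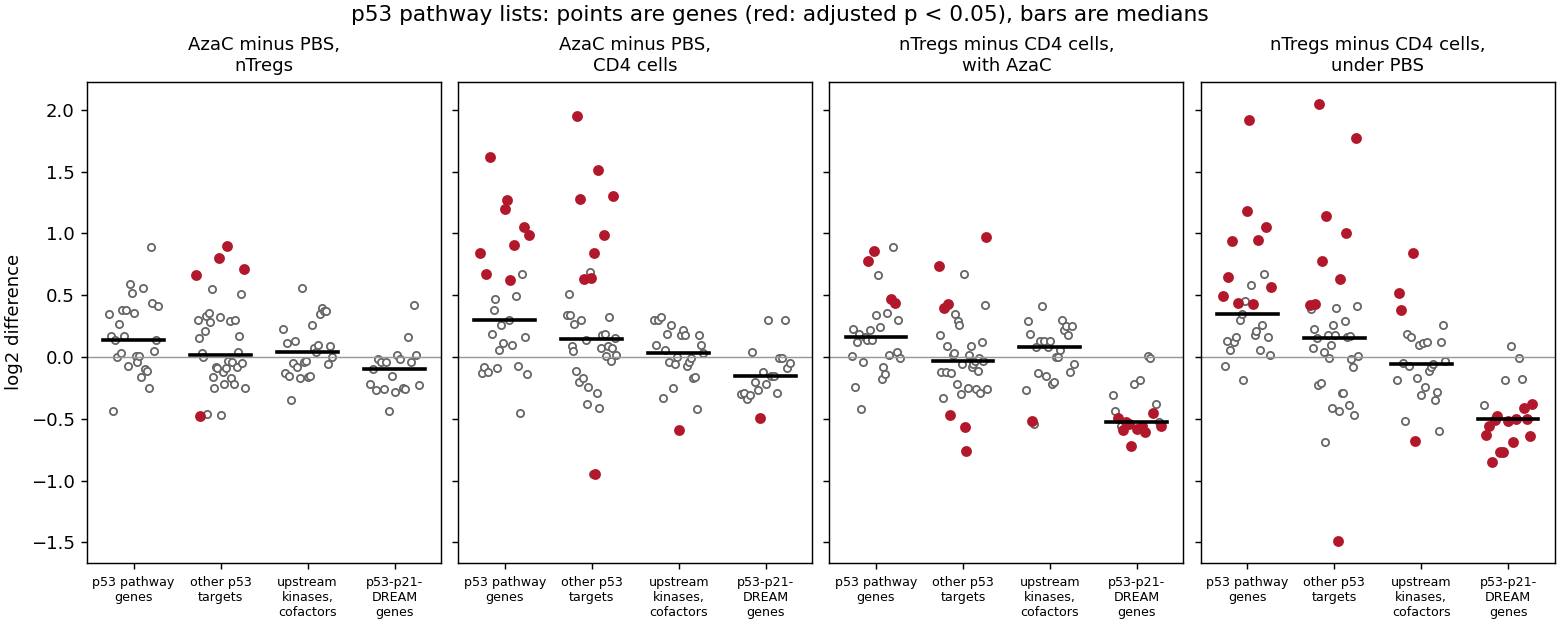
Log2 differences of single genes in 4 lists, for AzaC minus PBS in nTregs and in CD4 cells and for nTregs minus CD4 cells with AzaC and under PBS. Points are genes, red where the adjusted p was under 0.05, and bars are list medians. In CD4 cells the medians are 0.30 for the 27 p53 pathway genes, 0.15 for other p53 targets, 0.03 for upstream kinases and cofactors and −0.15 for the cell cycle genes lowered through p53.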

How the data were processed

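The authors deposited 1 table of log2 values, 1 column for each of the 12 arrays. Per the submitters' processing notes these were made with RMA in Affymetrix Expression Console, in versions not given there. RMA subtracts background, applies quantile normalization and summarises a probe set, so levels of different genes are not comparable and a shift of all genes would be removed. The table carries no detection calls. Of its 41345 rows, 23521 carry exactly 1 symbol in the platform annotation. The brightest row per gene over the 12 arrays was kept, which left 22180 genes. No source used here gives the genome build behind that annotation.

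limma 3.58.1 in R 4.3.3 fitted 1 mean per group to all 12 arrays, with 8 residual and 5.95 prior degrees of freedom, and all adjusted p-values come from it (Benjamini-Hochberg, 22180 genes). The number of arrays limits precision, with a median SE of 0.13 for a log2 difference. Alternatives were array weights, arrays centred on their median, repeated quantile normalization, a filter on dim genes, the mean over a gene's rows, a variance trend with robust moderation, a fit of only the groups compared, the replicate number as a block, and leaving out each array in turn. Members, lists, tests and alternatives were chosen with earlier results of these data known. Values in each array are given for genes called in an AzaC comparison and for Mdm2. Up to 4 genes with the smallest p were named from each other list where genes were called, otherwise 2. Lif, Sesn2, Btg2 and further genes were named after their values were seen.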

Additional observations from a re-analysis of the deposited data

Results flagged for a closer look

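Dglucy was marked because its AzaC effects in the populations differed in the test of the difference itself. The effect was 0.27 on the log2 scale in nTregs and 1.62 in CD4 cells, a difference of −1.36 (SE 0.21, adjusted p = 0.0198 in limma). Over the 19 alternatives tried for this difference it lay between −1.52 and −1.23, with adjusted p-values from 0.000168 to 0.0693.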

How the results depend on the processing

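The 9 calls in CD4 cells held under each of the 20 alternatives, and no call of the 27 genes changed sign under any. Of the 24 calls of these genes over the 5 comparisons, 17 held under every alternative run and 7 were lost under at least 1. Array weights gave 6 calls for AzaC in nTregs, 6 for the difference between AzaC effects and 7 for nTregs minus CD4 cells with AzaC. A fit of only the groups compared gave 8 with AzaC and 6 under PBS, and the calls of Aen, Ercc5, Polk and Zmat3 under PBS were lost there (adjusted p = 0.0845 to 0.162). A filter on dim genes, which removed 1 of the 27, gave 1 call for AzaC in nTregs, and repeated quantile normalization gave 2 for the difference between AzaC effects. Beyond the smaller number of genes tested or of samples fitted, the cause was not tested. Leaving out each array in turn gave 9 to 13 calls for AzaC in CD4 cells, 0 to 2 in nTregs, 0 to 2 for the difference between effects, 2 to 5 for nTregs minus CD4 cells with AzaC and 7 to 15 under PBS.

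Same-numbered arrays were not paired by the labels, and their deviations from group means correlated between −0.10 and 0.19 over all genes. The replicate number as a block gave 9 calls in CD4 cells, 1 in nTregs (Tnfrsf10b, adjusted p = 0.0397), 1 for the difference between effects, 5 with AzaC and 11 under PBS. Of 34 calls named from the other p53 lists, 19 held under every alternative and 15 were lost under at least 1, with no change of sign. Centring arrays on their median put the median difference between AzaC effects over all genes at 0.09, against −0.04. With 3 arrays a group, log2 differences had a median SE of 0.13.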
